A study of Mus musculus with 11 samples.

Results

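The cells described here are C1q macrophages of the mouse lung, macrophages that carry messenger RNA of the 3 complement C1q chains. They were taken from 11 droplet single-cell RNA sequencing libraries of dissociated lung by a rule on raw counts of unique molecular identifiers (UMIs, 1 per captured RNA molecule). A barcode had to hold 1000 to 30000 UMIs and at most 14% mitochondrial UMIs, which left 69266 of 81983 barcodes. Of these, a member had at least 10 UMIs of C1qa, C1qb and C1qc together, at most 1 UMI of the alveolar macrophage genes Plet1, Krt79, Siglecf and Ear1, and under 10 UMIs of Gpnmb, Spp1 and Ctsk, which are high in lipid-associated macrophages. The rule found 1622 members, 77 to 327 per library. The levels of these 10 genes in the members are therefore set by the choice and are given only as a description.

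The study asked, as its title states, about inducing mTert, the mouse telomerase reverse transcriptase, in p21-positive cells against loss of capillaries and emphysema. The groups were WT (1 library), p21 +/- (p21Het, 3 libraries), p21 +/mTert (p21mTert, 5 libraries) and p21 +/mTertCD (p21mTertCD, 2 libraries). The labels do not spell out CD, and they do not name the cells in which the mTert alleles are transcribed. All groups but WT thus carried 1 altered p21 allele. Ages in the sample labels were 18 months, except 19 months for p21Het replicate 1 and 20 months for p21mTert replicate 1, although the titles give 18 for every library. WT, p21Het replicate 1 and p21mTert replicate 1 came with an earlier deposit than the other 8 libraries. Nothing in the sources used here says how libraries relate to animals beyond these labels, so p-values measure the spread between libraries. With 1 library, WT has no test.

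C1q is the recognition molecule of the classical complement pathway. It binds antibody complexes and dying cells, and tissue macrophages are its main source. In the lung, interstitial macrophages lie around airways, vessels and nerves, apart from the alveolar macrophages of the airspace. They are commonly divided into cells with Lyve1 and Folr2, often beside vessels, and cells with high levels of major histocompatibility complex (MHC) class II. Position in the tissue was not measured in these dissociated cells, so "interstitial" rests on RNA markers.

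Libraries held 42038434 to 85988955 UMIs. The members had a median of 8928 to 14688 UMIs per cell, against 4133 to 6454 over all barcodes that passed, and a median mitochondrial share of 2.81% to 4.92%. Their summed UMIs ran from 796242 in WT to 3625736 in p21Het replicate 2. No barcode of a member recurred in another library, whereas pairs of libraries shared 9 to 83 barcodes in all. The p21Het replicate 2 and p21mTertCD replicate 1 libraries held the largest numbers of members, 327 and 272.

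The C1q genes lie together on chromosome 4, and their promoters are shown because all 3 transcripts were found in the same cells. The sequences are from RefSeq (build GRCm38.p6), run 5′ to 3′ on the minus strand from 250 bases before the transcription start to 50 bases after it. C1qa had no match in the promoter table. Capitals mark matches to AGGAAGT, a core bound by the macrophage factor PU.1 and other ETS proteins (here as its reverse complement ACTTCCT), and to TGCTGA, the half-site of MAF factors. The windows are chr4:136886151-136886450 for C1qb and chr4:136892865-136893164 for C1qc.
C1qb: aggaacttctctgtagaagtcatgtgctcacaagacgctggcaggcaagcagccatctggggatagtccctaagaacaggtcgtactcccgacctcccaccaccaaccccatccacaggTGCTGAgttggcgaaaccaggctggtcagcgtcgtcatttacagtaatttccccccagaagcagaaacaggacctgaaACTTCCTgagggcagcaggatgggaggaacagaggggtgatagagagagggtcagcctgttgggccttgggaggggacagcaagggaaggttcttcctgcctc
C1qc: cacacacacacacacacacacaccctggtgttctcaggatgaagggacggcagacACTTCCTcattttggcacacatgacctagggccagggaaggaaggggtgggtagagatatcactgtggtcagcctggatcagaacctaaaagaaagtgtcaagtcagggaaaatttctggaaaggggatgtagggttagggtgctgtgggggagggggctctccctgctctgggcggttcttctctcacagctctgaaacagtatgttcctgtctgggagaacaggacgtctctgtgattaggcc
In C1qb the ETS-type match began 53 bases and the MAF-type match 131 bases before the start, and in C1qc the ETS-type match began 195 bases before it. Such short letters are common. On either strand, AGGAAGT occurred in 3072 of 32851 promoters of this length (9.35%), TGCTGA in 6401 (19.5%), and both in 634 (1.93%). The matches describe the letters and do not show binding.

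The label was checked against genes that the rule did not use, with levels in counts per 1000000 (CPM) of the UMIs summed over a cell class in each library, as mean ± SD over the 11 libraries. The comparison cells were 4172 alveolar macrophages, 2336 classical monocytes and 15366 B cells chosen by their own markers and by limits on other genes. Alveolar macrophages and monocytes had to hold few C1q UMIs. Monocytes also had to hold UMIs of Csf1r or Ccr2, so the choice sets part of their Csf1r level. All of these classes are cells of the same libraries sorted by expression, so the comparison is a description with no test. Csf1r, the receptor that macrophages need for survival, averaged 891 ± 194 CPM in the members, 61.4 in alveolar macrophages and 449 in monocytes. The pan-macrophage surface gene Adgre1, which encodes F4/80, averaged 394 ± 53.4 CPM in the members and 85.3 and 101.4 in the other 2 classes. Ms4a7 averaged 703 ± 144 CPM against 5.95 and 9.61. The members thus stood above both classes for these genes. Mertk, a receptor for dying cells, averaged 116 CPM in the members and 213 in alveolar macrophages, and the members were the lower of the 2 in 11 of 11 libraries. Lyz2, the lysozyme of myeloid cells, was also lower in the members (8069 CPM) than in monocytes (18912 CPM).

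Of 16 macrophage identity genes, 13 were higher in the members than in alveolar macrophages, 11 were higher than in monocytes and 16 higher than in B cells, each in 11 of 11 libraries. The share of all genes above each single class is not given here, so these counts stand without a background. B cells had been picked partly for having no Csf1r, Adgre1 or Fcgr1, so their low values for those genes follow from the choice. Among all 1352 genes at 100 CPM or more in the members, 224 were higher than in both alveolar macrophages and monocytes in 11 of 11 libraries, the 3 C1q genes of the rule included. Several of those nearest to absent in the other 2 classes encode secreted or surface proteins. Ccl8, a monocyte-attracting chemokine, averaged 859 ± 381 CPM in the members and under 1 CPM in both. Cxcl13, which draws B cells, averaged 939 ± 488 CPM, against 0.470 in alveolar macrophages and 1.86 in monocytes. Pf4 (a platelet-type chemokine) reached 1468 ± 622 CPM, Vcam1 (an adhesion receptor) 371 CPM, and C3ar1 (the receptor of complement fragment C3a) 299 CPM. Cd163, a haemoglobin scavenger receptor, averaged 246 CPM, and Folr2, a folate receptor, 159 CPM. These genes were chosen after their values were seen.

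**Figure D1:**
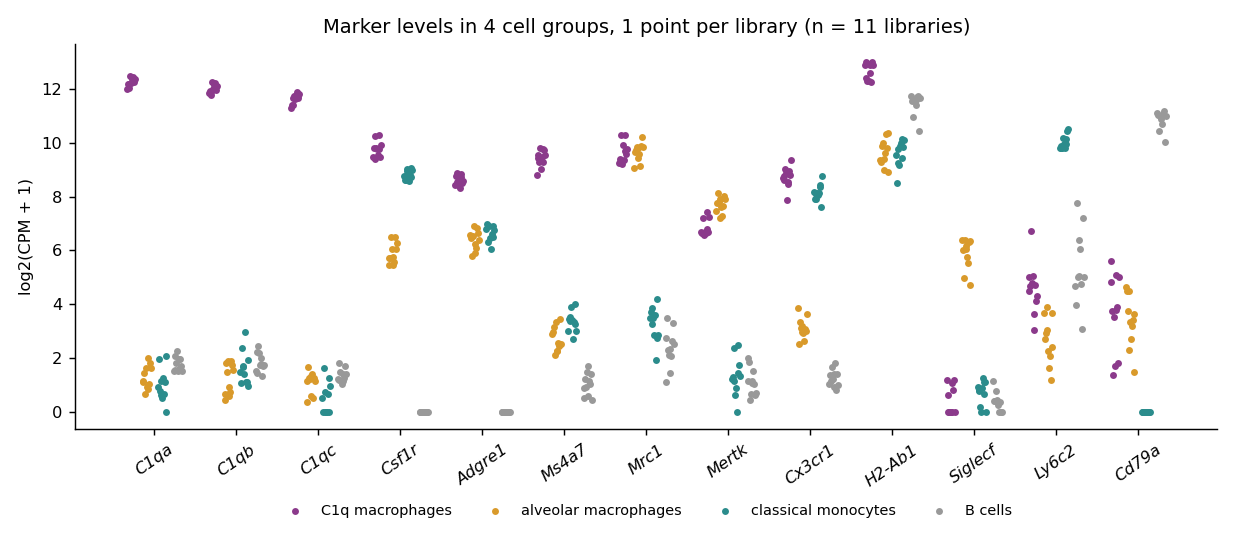
Levels of marker genes, as log2(CPM + 1), in C1q macrophages, alveolar macrophages, classical monocytes and B cells, with 1 point per library (11 libraries). In every library the C1q chains and Ms4a7 lie far above the other 3 classes, while Mertk is highest in alveolar macrophages. The choice of cells set the C1q levels high in the members and capped them in alveolar macrophages and monocytes.

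The C1q chains were high by choice and varied little between libraries. C1qa averaged 4921 ± 520 CPM, C1qb 4176 ± 456 CPM and C1qc 3198 ± 393 CPM over the 11 libraries. The same genes were near 0 in the other classes (C1qa 1.56 CPM in alveolar macrophages, 1.18 in monocytes and 2.46 in B cells). Alveolar macrophages and monocytes had been picked partly for few C1q UMIs, so the choice caps their values. B cells had no limit on C1q UMIs. By group, C1qa was 4136 CPM in WT, 4484 ± 277 in p21Het (n = 3), 5207 ± 426 in p21mTert (n = 5) and 5251 ± 61.8 in p21mTertCD (n = 2). C1qb was 3715, 3736 ± 213, 4441 ± 430 and 4405 ± 33.3 CPM in the same order, and C1qc was 2531, 2882 ± 310, 3402 ± 231 and 3497 ± 81.7 CPM. Because the rule counts these UMIs, no test was made on them.

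To compare cells at equal depth, each member was thinned at random to 1000 UMIs. All 3 chains were then still detected in 73.6% (p21Het replicate 3) to 90.1% (p21mTertCD replicate 1) of members. Across the cells of a library, the Spearman correlation of C1qa with C1qb was 0.37 to 0.57. These are correlations over 77 to 327 cells that share a library and a fixed total, and they are given as description only.

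Members close to the limit on C1q had other levels of several genes than the bulk of the members. The 64 members with 10 to 14 C1q UMIs averaged 463 CPM of Csf1r, 94.5 of Ms4a7, 2687 of Apoe and 112 of the dendritic cell gene Cd209a. The 1558 members with 15 or more averaged 871, 747, 10114 and 44.5 CPM of those genes. The 128 cells just outside, with 5 to 9 C1q UMIs, averaged 422 CPM of Csf1r, 53.9 of Ms4a7 and 253 of Cd209a. Surfactant gene Sftpc, a product of alveolar type 2 cells, reached 4396 CPM in the 64 and 1066 CPM in the 1558. On the other 2 limits, 13 cells with 2 or 3 UMIs of the alveolar genes fell outside, against 92 members with 1 such UMI. Those 92 averaged 754 CPM of Csf1r and 702 of Ms4a7, near the 864 and 726 CPM of the 1530 members with none, but 6768 against 801 CPM of Sftpc. A further 31 cells fell outside through 10 or more UMIs of Gpnmb, Spp1 and Ctsk, 16 of them in p21mTertCD replicate 1 and 7 in p21Het replicate 2. The 13 members with 5 to 9 such UMIs averaged 780.1 CPM of Csf1r and 703 of Ms4a7, against 858 and 725 CPM in the 1609 members with fewer. Adgre1 (384 and 389 CPM) and Mrc1 (816 and 812 CPM) were also close. The MHC class II gene H2-Aa (2631 and 7331 CPM), the neutrophil gene S100a8 (2914 and 232 CPM) and Fabp5 (404 and 138 CPM) were not.

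Among the members, Lyve1 (a hyaluronan receptor), Folr2 and Timd4 (a receptor for phosphatidylserine on dying cells) marked a distinct minority. After thinning to 1000 UMIs, 205 of 1622 members (12.6%) had at least 1 UMI of these 3 genes and 1417 had none. At the same depth, 0% to 1.91% of alveolar macrophages, 0% to 1.45% of monocytes and 0.225% to 0.691% of B cells had one, and the source of those UMIs was not tested. Without thinning, 14.0% to 47.2% of the members of a library had one. The levels below come from the UMIs not drawn in the thinning, so that a gene's own draw does not enter them, and each value is a mean over 11 libraries. The split itself was made by expression, so no test is given.

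The positive members carried a broad set of genes of the Lyve1 and Folr2 type. Lyve1 was 729 CPM in positive and 24.3 CPM in negative members, and Folr2 was 698 and 52.5 CPM, which the split itself sets. Among genes the split did not use, Cd163 stood at 864 and 132 CPM, the coagulation factor gene F13a1 at 1364 and 156 CPM, and Fcna, a lectin of the complement system, at 587 and 48.8 CPM. The chemokine genes Ccl8 (2090 and 639 CPM) and Ccl24 (746 and 77.2 CPM), complement C4b (612 and 103.5 CPM), and Gas6 (590.03 and 111 CPM), which bridges dying cells to Mertk and its relatives, followed the same order. Each of these 7 genes was higher in the positive members in 11 of 11 libraries. Without the 3 defining genes, 14 of the 15 other genes listed for this subset were higher in 11 of 11 libraries, with a median log2 difference of 2.19. Over the 2875 other genes at a mean of 50 CPM or more, 304 were higher and 259 lower in every library, with a median of 0.04.

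The negative members carried more RNA of MHC class II genes. Among them H2-Ab1, a class II chain, stood at 7517 CPM against 2076 CPM in the positive members, and Cd74, the class II invariant chain, at 20644 against 6221 CPM. Il1b, which encodes the cytokine interleukin-1β, was 1616 against 179 CPM. Mmp12, the macrophage elastase, was 473 against 14.6 CPM, Ccr2, the receptor that guides monocytes into tissue, 269 against 40.6 CPM, and Itgax (CD11c) 163 against 8.39 CPM. All 6 were lower in the positive members in 11 of 11 libraries. For 3 of them 1 library carried much of the positive mean. Without WT, Il1b in positive members averaged 118 CPM and Ccr2 17.1 CPM, and without p21mTertCD replicate 1 Mmp12 averaged 0.597 CPM (a check added after the data were seen). Of 11 class II presentation genes, 8 were lower in the positive members in every library (median log2 difference -1.47), and of 13 genes listed for the MHC-II-high subset 9 were (median -1.50). The inflammatory cytokine list as a whole did not split this way, with 2 of 16 genes lower and 0 higher in every library and a median of -0.16.

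Other gene groups split between the subsets to different degrees. As background, 304 of 2875 genes at a mean of 50 CPM or more were higher in every library and 259 lower. Scavenger and efferocytosis genes included 9 of 20 that were higher in the positive members in every library and 4 that were lower. The 9 include Timd4, which defined the split, and Cd163 and Gas6, already given above. Of 11 iron and heme genes, 6 were higher in all libraries, as were 7 of 19 chemokines, with 3 chemokines lower. The 7 include Ccl8 and Ccl24, already given above. The complement list other than C1q had 5 of 17 higher, C4b among them. The C1q levels of all members are set in part by the rule and are given as description. C1qa was 5479 CPM in positive and 4736 CPM in negative members and higher in the positive ones in 9 of 11 libraries. C1qb was 4190 CPM in positive and 4120 CPM in negative members and was higher in the positive ones in 5 of 11 libraries. C1qc was 3781 and 3049 CPM and higher in the positive ones in 11 of 11. Cdkn1a, the gene for p21, was 239 and 293 CPM and higher in the positive ones in 3 of 11. Neither proliferation genes (0 of 15) nor CDK inhibitors and telomerase (0 of 15) held a gene that was higher or lower in every library. The lists had no floor on level, unlike the background. A gene with few UMIs can hardly keep 1 order in 11 libraries, so these counts do not show equal levels. Within libraries, summed MHC class II UMIs per 1000 correlated with those of Lyve1, Folr2 and Timd4 at a Spearman rho of -0.21 to -0.50.

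**Figure D2:**
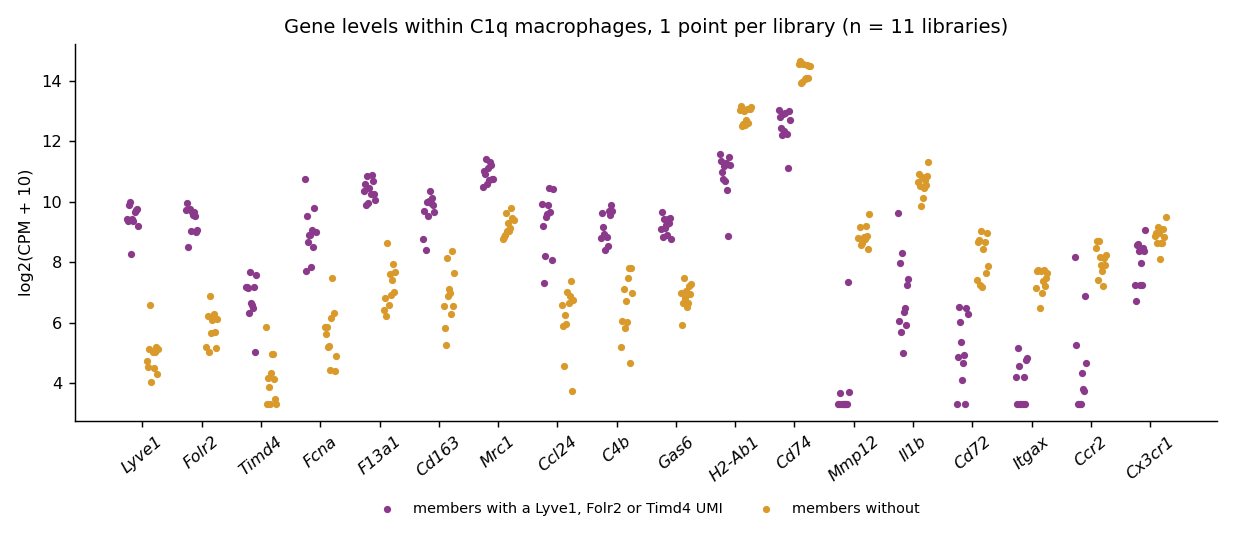
Gene levels, as log2(CPM + 10), in members with and without a Lyve1, Folr2 or Timd4 UMI at 1000 UMIs per cell, with 1 point per library (11 libraries). F13a1 and Cd163 are higher in the positive members of every library, and Mmp12 and Il1b are lower. Lyve1, Folr2 and Timd4 defined the split.

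The share of C1q macrophages among barcodes that passed was compared between genotypes. It was 1.41% in WT (exact 95% binomial interval 1.11% to 1.76%, counting error only). In p21Het it was 1.59%, 3.84% and 2.13% (2.52% ± 1.17 SD, n = 3). In p21mTert it was 2.20%, 1.38%, 2.27%, 2.00% and 1.99% (1.97% ± 0.349, n = 5), and in p21mTertCD 4.15% and 2.13% (3.14% ± 1.43, n = 2). The 2 highest libraries belong to p21Het and p21mTertCD, and the other libraries of those groups lie within the p21mTert range. In 2-sided exact permutation tests over libraries, p21mTert differed from p21Het by -0.552 percentage points (p = 0.339) and from p21mTertCD by -1.17 (p = 0.143). For p21mTertCD minus p21Het it was 0.617 (exact permutation p = 0.6). With so few libraries, p cannot go below 0.0179, 0.0476 and 0.1 in that order. Without p21Het replicate 2 the first difference was 0.106 points, and without p21mTertCD replicate 1 the third was -0.394. Shares of all cells also move with what dissociation released, and that part was not tested.

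Set against alveolar macrophages alone, the members made up 25.1% of both classes in WT (exact 95% interval 20.3% to 30.3%). The p21Het libraries gave 19.7%, 27.8% and 33.2% (26.9% ± 6.80). Those of p21mTert gave 30.5%, 26.6%, 29.1%, 28.5% and 29.2% (28.8% ± 1.42), and the p21mTertCD pair gave 28.9% and 29.8% (29.4% ± 0.650). The 3 p21Het libraries spread across both sides of the other groups. The differences were 1.84 points for p21mTert minus p21Het, -0.597 for p21mTert minus p21mTertCD and 2.44 for p21mTertCD minus p21Het (exact permutation p = 0.607, 0.619 and 0.7). The first turned to -1.76 and the third to -1.16 without p21Het replicate 1.

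The share of members with a Lyve1, Folr2 or Timd4 UMI at 1000 UMIs was 12.99% in WT (exact 95% interval 6.41% to 22.6%). The 3 p21Het libraries had 15.2%, 7.95% and 24% (15.7% ± 8.04). Those of p21mTert had 8.03%, 20.2%, 15.4%, 14.4% and 23.4% (16.3% ± 5.88), and the p21mTertCD pair had 4.41% and 15.1% (9.77% ± 7.58). The p21mTertCD and p21Het libraries with the most members, 272 and 327, had the 2 lowest shares. The differences were 0.581, 6.51 and -5.93 points in the order above (exact permutation p = 0.946, 0.286 and 0.4). With Benjamini-Hochberg adjustment over the 9 tests of these 3 shares, adjusted permutation p-values were 0.946 for the first of these and 0.788 for each of the others. None of the 9 differences in share passed the test. Without p21Het replicate 2 the first difference was -3.29 points. Each share rests on 1 random draw of UMIs, whose error was not estimated. On a new draw with at least 20 C1q UMIs, p21Het replicate 1 had 20 of 92 positive members, against 15 of 99 here. On one without Scrublet doublets, p21Het replicate 2 had 13 of 300, against 26 of 327.

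**Figure D3:**
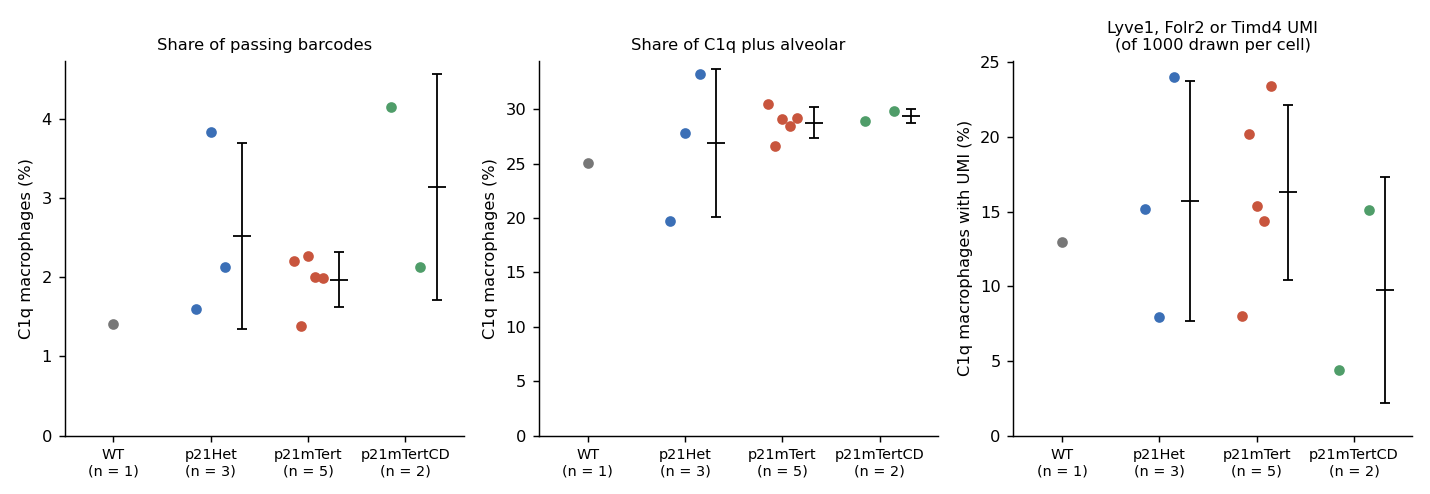
Percent of passing barcodes that were C1q macrophages, percent of C1q plus alveolar macrophages that were C1q macrophages, and percent of C1q macrophages with a Lyve1, Folr2 or Timd4 UMI, by genotype, 1 point per library, with bars for the group mean ± SD. In all 3 panels the libraries of the 3 replicated groups overlap.

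Cdkn1a, which encodes the cell cycle inhibitor p21 and lies at the altered locus (chr17:29090976-29100727, plus strand, mm10), was 548 CPM in the members of WT. The p21Het libraries had 227, 211 and 293 CPM. Those of p21mTert had 290.4, 268, 257, 224 and 307 CPM, and the p21mTertCD pair had 276 and 231 CPM. The 1 WT library lay above all 10 libraries with an altered allele, which overlapped one another. The edgeR log2 fold changes were 0.20 (SE 0.14) for p21mTert minus p21Het, 0.03 (SE 0.16) for p21mTert minus p21mTertCD and 0.17 (SE 0.17) for p21mTertCD minus p21Het, and none passed.

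Tert was rare in these cells. It had 0 UMIs in WT, 2 in p21Het, 25 in p21mTert and 17 in p21mTertCD. Its level was 0, 0.276 and 0.534 CPM in p21Het. The p21mTert libraries had 2.26, 3.01, 3.82, 2.22 and 5.42 CPM, and the p21mTertCD pair had 3.81 and 3.098 CPM. Every library with an mTert or mTertCD allele lay above every library without one. Tert fell below the edgeR filter on low counts, so log2(CPM + 1) was compared. The difference p21mTert minus p21Het was 1.75 on that scale, with an exact permutation p of 0.0179, the smallest possible, and an adjusted permutation p of 0.0536 over 3 contrasts. For p21mTertCD minus p21Het it was 1.83 (exact permutation p = 0.1, the smallest possible), and for p21mTert minus p21mTertCD it was -0.08 (exact permutation p = 0.905). With 44 UMIs in all, the share of members that transcribe Tert cannot be read from these data. The files do not separate transcripts of the altered allele from those of the normal Tert gene.

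Differences in the whole transcriptome of the members were tested with edgeR's quasi-likelihood test on UMIs summed per library, over 9757 genes, at an adjusted p under 0.05. For p21mTert minus p21Het it called 0 genes (0%), with 441 at an unadjusted p under 0.05 (4.52%), and DESeq2 called 5. For p21mTert minus p21mTertCD and for p21mTertCD minus p21Het it called 1 gene each (0.0102% of those tested), the same gene, Vsig8. At an unadjusted p under 0.05 these contrasts had 354 (3.63%) and 306 (3.14%) genes. The contrasts share groups, so their values are not independent of one another. Library values did not overlap, higher and lower in that order, in 1.06% and 1.71% of genes for p21mTert minus p21Het. They did not in 4.93% and 2.43% for p21mTert minus p21mTertCD and in 4.12% and 14.4% for p21mTertCD minus p21Het.

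Vsig8, which encodes a membrane protein with immunoglobulin domains, was higher in p21mTertCD. Its members held 174 and 67 Vsig8 UMIs, or 55.2 and 41.5 CPM. The 3 p21Het libraries held 1 UMI together, the 5 p21mTert libraries 2, and WT 0. The 2 p21mTertCD libraries stood far above all 9 others. In edgeR, p21mTert minus p21mTertCD came to -7.25 on the log2 scale with an SE of 0.48 (adjusted p = 3.33e-05), and p21mTertCD minus p21Het to 7.85 with an SE of 0.59 (edgeR adjusted p = 0.00013). These fitted values depend on the prior count. Each SE was computed from them and the F statistic, so it does not bound the fold change. In ratios of UMIs, p21mTertCD was 323 times p21Het (95% counting interval 57.4 to 12808) and 192 times p21mTert (52.5 to 1593). Against WT, with no UMI, the 95% counting interval of the ratio began at 10.8. With 3 UMIs taken as a floor for WT, the ratio was 13.4. Without p21Het replicate 2 and p21mTertCD replicate 1 the second contrast had a log2 fold change of 8.99 and an edgeR adjusted p of 0.227.

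The Vsig8 UMIs were spread over many cells. In p21mTertCD, 101 of 272 (37.1%) and 38 of 119 (31.9%) members had at least 1, and no cell had more than 7. Of the 838 Vsig8 UMIs in all passing barcodes of p21mTertCD, 241 were in the members, 122 in monocytes, 74 in alveolar macrophages and 3 in B cells, and the other cells were not compared. Monocytes of p21mTertCD held 14.1 and 18.9 CPM of Vsig8, against at most 0.417 CPM in any other library. Alveolar macrophages held 4.17 and 2.84 CPM, against 0.628 to 2.27 CPM elsewhere, and B cells of all libraries held at most 0.438 CPM. Vsig8 lies at chr1:172555938-172563717 on the plus strand (mm10). An annotated transcript on the opposite strand, 4933439K11Rik, overlaps it, and whether the counting used strand is not given in the sources used here.

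Cfap45, a gene of cilia, lies close by at chr1:172520801-172545870 on the same strand. In the members it was 4.13 and 2.48 CPM in p21mTertCD and 10.5, 15.03, 12.5, 11.1 and 13.9 CPM in p21mTert, without overlap. The p21Het and WT libraries lay between, at 7.89, 9.38 and 5.88 CPM in p21Het and 6.28 CPM in WT. The log2 fold change p21mTert minus p21mTertCD was 1.79 (SE 0.37) and did not pass (edgeR adjusted p = 0.667). In alveolar macrophages Cfap45 was 21.9 and 25.2 CPM in p21mTertCD and 58.6 to 173 CPM in p21mTert.

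The genes next in order by p did not pass in edgeR with the settings used throughout, and their values are given as measured. For p21mTert minus p21Het the nearest was the long noncoding RNA Gm42031, at 112, 85.7, 81.8, 104 and 59.7 CPM in p21mTert and 11.3, 23.4 and 29.4 CPM in p21Het. The groups did not overlap, and the log2 fold change was 2.01 (SE 0.28, edgeR adjusted p = 0.106). It was 13.01 and 22.9 CPM in p21mTertCD and 22.6 CPM in WT, and p21mTert minus p21mTertCD gave 2.32 (SE 0.34, edgeR adjusted p = 0.0806). The order was not particular to the members: in B cells Gm42031 averaged 96.4 ± 25.0 CPM in p21mTert and 19.3 in p21Het, and in monocytes 116 ± 65.1 and 10.0 CPM. DESeq2 called it in both contrasts. So did edgeR without Scrublet doublets (edgeR adjusted p = 0.0115 and 0.0151), with the 2 groups alone (0.0440 and 0.0398), without p21mTert replicate 5 (0.0242 and 0.0184) and with no filter on low counts (7.9e-08 and 1.2e-07), and without p21Het replicate 1 edgeR called it against p21mTertCD (0.0267).

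Cxcl1, a chemokine that attracts neutrophils, was 231, 278, 280.4, 345 and 324 CPM in p21mTert and 109, 125 and 91.9 CPM in p21Het. The groups did not overlap, but p21mTertCD held a value on each side, 72.1 and 275 CPM, and WT was 216 CPM. The log2 fold change p21mTert minus p21Het was 1.46 (SE 0.33, edgeR adjusted p = 0.626). DESeq2 called it, as did edgeR with the 2 groups alone (edgeR adjusted p = 0.0368), without either p21mTertCD library (0.0415 and 0.0390) and with no filter on low counts (0.000175). Gbp3, an interferon-induced GTPase, averaged 52.6 ± 4.81 CPM in p21mTert, 56.7 ± 8.30 in p21mTertCD and 31.5 ± 3.23 in p21Het. Wdfy1, an adaptor of Toll-like receptor signalling, averaged 28.5 ± 3.1 CPM in p21mTert, 13.5 ± 1.49 in p21Het and 11.6 ± 5.08 in p21mTertCD. Gm47283, annotated on the Y chromosome, averaged 72.5 ± 25.8 CPM in p21mTert and 26.9 ± 17.1 in p21Het, with 76.6 CPM in WT and 32.4 and 29.1 CPM in p21mTertCD. DESeq2 called it for p21mTert minus p21Het (DESeq2 adjusted p = 0.0191).

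On the lower side, Napsa, an aspartic protease of alveolar type 2 cells and some macrophages, was 59.4, 50.4, 55.6, 32.2 and 42.6 CPM in p21mTert and 135, 95.2 and 108 CPM in p21Het, without overlap. Its log2 fold change was -1.16 (SE 0.19, edgeR adjusted p = 0.228), and it was 49.5 and 50.2 CPM in p21mTertCD and 100.5 CPM in WT. Hp, the haemoglobin binder haptoglobin, averaged 35.4 ± 8.88 CPM in p21mTert and 91.2 ± 18.7 in p21Het (log2 fold change -1.32, edgeR adjusted p = 0.368). DESeq2 called both, as did edgeR with no filter on low counts (edgeR adjusted p = 6.3e-05 for each), and with the 2 groups alone edgeR called Hp (0.0440). The remaining 3 were Slc44a2 (16.9 against 36.8 CPM), Nxpe4 (4.04 against 14.6 CPM) and Tuba4a (17.7 against 28.9 CPM). The summed markers of alveolar epithelium, a list that holds Sftpc, ran from 315 to 7578 CPM in the members of p21Het, 350.2 to 2780 in p21mTert and 304 to 384 in p21mTertCD, and WT held 226 CPM. Hp is also on the classical monocyte list, whose summed level was 516 to 1132 CPM in p21Het, 280.4 to 379 in p21mTert, 471 to 515 in p21mTertCD and 698 in WT. Among members without UMIs of Cd79a, Ms4a1, Cd3e, Cdh5 and Col1a2 and with at most 5 of Sftpc, the log2 fold change of Napsa was -1.34 (edgeR adjusted p = 0.419) and that of Hp -1.29 (edgeR adjusted p = 0.978). In the same members the log2 fold change of Napsa for p21mTertCD minus p21Het moved from -1.06 to -0.55 (edgeR adjusted p = 1.00 for both).

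In the contrasts with p21mTertCD, Hopx, a homeodomain cofactor of alveolar type 1 cells and some immune cells, was 12.1 and 13.01 CPM in p21mTertCD. It was 34.9, 34.5 and 32.1 CPM in p21Het, 26.3 to 51.1 CPM in p21mTert and 41.4 CPM in WT, so p21mTertCD lay below all other libraries (log2 fold change p21mTert minus p21mTertCD 1.49, edgeR adjusted p = 0.212, called by DESeq2). Among members without UMIs of the other lineages named above, that value was 1.44, and p21mTertCD minus p21Het moved from -1.34 to -0.74 (edgeR adjusted p = 1.00 for each in those members). Nxpe5 averaged 58.7 ± 9.44 CPM in p21mTertCD, 30.1 ± 7.79 in p21mTert and 32.8 ± 5.93 in p21Het. Irf8, a transcription factor of mononuclear phagocytes, was 345 and 349 CPM in p21mTertCD and 289.7, 243 and 251 CPM in p21Het (log2 fold change 0.52, SE 0.13, edgeR adjusted p = 1.00). Prdm1, which encodes the repressor Blimp-1, averaged 71.7 ± 16.1 and 46.5 ± 7.27 CPM, and Slfn1, a gene of the Schlafen family, 16.2 ± 8.93 CPM in p21mTertCD and 3.34 ± 2.07 in p21mTert. The other genes next by p against p21mTertCD, none of which passed, were Klra2 (25.3 CPM in p21mTert against 48.3 in p21mTertCD), Ide (21.4 against 34.0), Pfkfb4 (43.0 against 58.1) and Tex2 (11.2 against 3.77). For p21mTertCD minus p21Het they were Ide (34.0 against 21.2 CPM), Cers4 (6.25 against 15.8), Slc44a2 (17.0 against 36.8) and Slc25a37 (18.2 against 30.3).

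**Figure D4:**
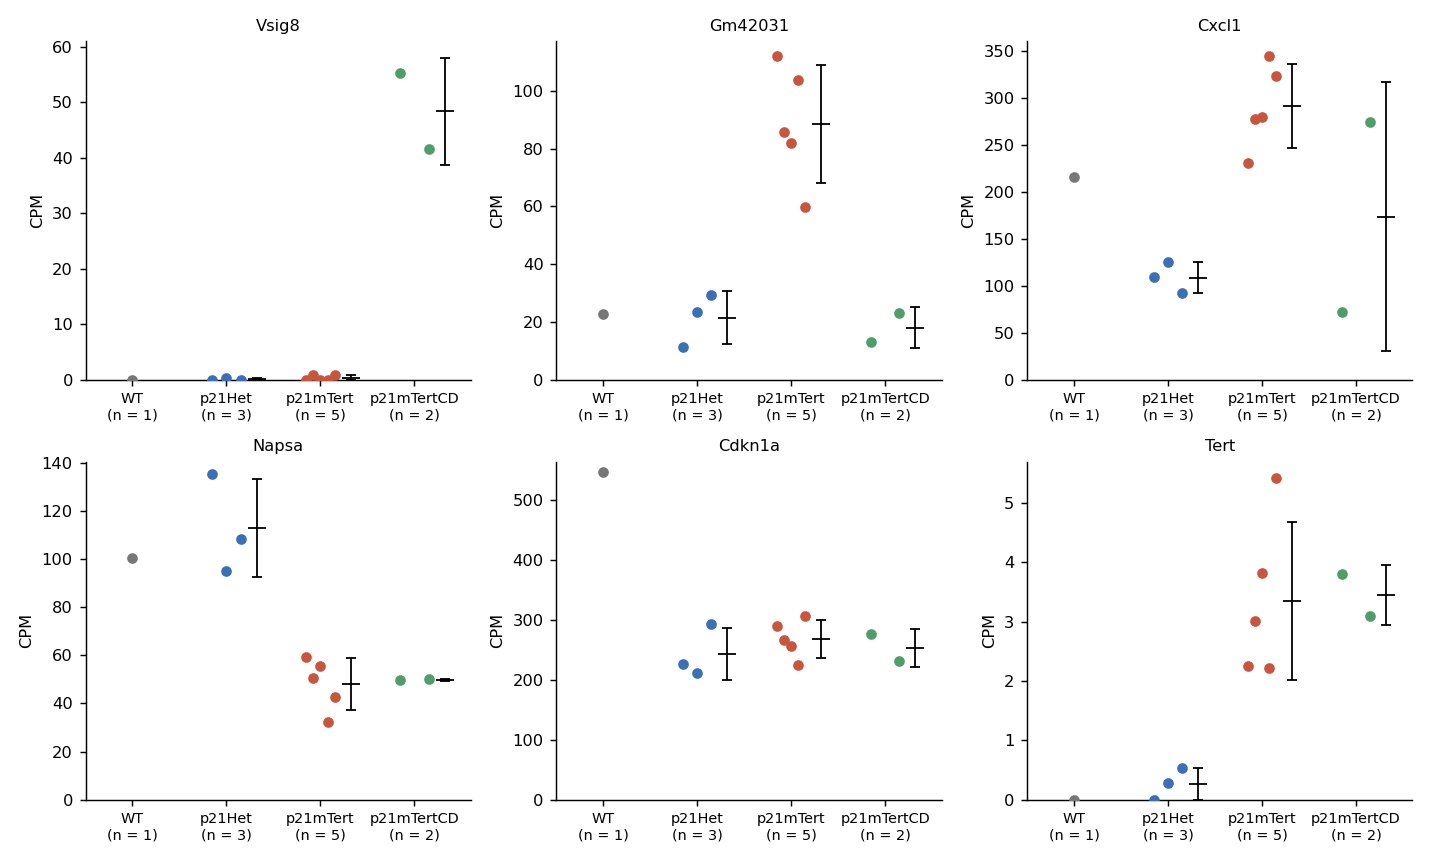
CPM of named genes in C1q macrophages by genotype, 1 point per library, with bars for the group mean ± SD. Vsig8 stands at 55.2 and 41.5 CPM in p21mTertCD and at or near 0 elsewhere, and Gm42031 is highest in all 5 p21mTert libraries.

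The genes of 16 pathway lists were read in the same fits, and edgeR called 0 of them in each contrast. Genes of a list at an unadjusted p under 0.05 are named after their values were seen, beside abundant genes of the list. In p21mTert minus p21Het, the 441 genes at an unadjusted p under 0.05 were 2.13% of genes on the higher side and 2.39% on the lower. Against that background, 4 of 19 chemokines were on the higher side and none on the lower, 15 of 19 had a fold change above 0, and the median log2 fold change was 0.41 (all tested genes, -0.0006). The 4 were Cxcl1, Ccl3, Ccl7 and Ccl4, of which the last 3 attract monocytes and lymphocytes. Ccl3 was 281, 158, 145, 214 and 366 CPM in p21mTert and 123, 106 and 78.0 CPM in p21Het, again without overlap, with 98.7 and 260 CPM in p21mTertCD and 382 CPM in WT. Ccl7 averaged 776 ± 234 and 505 ± 156 CPM, and Ccl4 529 ± 225 and 250.4 ± 186 CPM in p21mTert and p21Het. In p21mTertCD minus p21Het the chemokine median was 0.39, with 1 gene on the higher side. The abundant chemokines differed less, with Cxcl2, another neutrophil chemokine, at 2003 ± 309 CPM in p21mTert and 1671 ± 464 in p21Het. Cxcl13 was at 839 ± 428 and 1195 ± 788 CPM and Ccl8 at 960.2 ± 445 and 806 ± 150.4 CPM.

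Of 15 inflammatory cytokine genes tested, 3 were on the higher side in p21mTert minus p21Het (Il1a, Il6 and Il1rn) and 1 on the lower (Tgfb1), with a median of 0.28. Il6 was 42.9, 11.3, 22.9, 11.7 and 1.55 CPM in p21mTert, 2.25, 1.93 and 4.81 CPM in p21Het, 0.952 and 0 CPM in p21mTertCD and 23.9 CPM in WT. Of the p21mTert values, 4 lie above all p21Het libraries and 1 lies below them. In p21mTertCD minus p21Het, 5 were on the higher side and none on the lower (background 1.37% and 1.76%): Il1b, Nlrp3 (a sensor of the inflammasome), Osm, Ptgs2 and Il1rn. In p21mTert minus p21mTertCD, Il6 was on the higher side and Il1b and Ptgs2 on the lower. Il1b averaged 1884 ± 208 CPM in p21mTertCD, 1253 ± 505 in p21Het and 1275 ± 298 in p21mTert.

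Interferon response genes had a lower median in p21mTert than in both other groups. Against p21Het, 4 of 22 tested genes were on the lower side (Isg15, Stat2, Ifit2 and Ifit3) and 1 on the higher (Gbp2), and the median was -0.34. Against p21mTertCD, 4 were on the lower side (Isg15, Xaf1, Stat2 and Oasl2) and none on the higher (background 1.86% and 1.77%), the median was -0.46, and 1 of 22 genes had a fold change above 0. Isg15, a ubiquitin-like protein induced by interferon, was 18.1, 24.05, 29.5, 27.2 and 10.1 CPM in p21mTert. It was 16.9, 30.6 and 92.4 CPM in p21Het, 73.0 and 51.4 CPM in p21mTertCD and 33.9 CPM in WT. One p21Het value lies inside the p21mTert range and the other 2 lie above it, as do both p21mTertCD values. Gbp2 went the other way, at 50.8 ± 13.5 CPM in p21mTert and 20.4 ± 10.4 in p21Het. In p21mTertCD minus p21Het, Oas1a (1.06) and Gbp2 (1.33) were on the higher side.

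MHC class II presentation genes had a median of 0.32 in p21mTertCD minus p21Het, with 11 of 11 above 0, and none passed even at an unadjusted p under 0.05. H2-Ab1 averaged 7959 ± 478 CPM in p21mTertCD, 6267 ± 1365 in p21mTert and 6225 ± 1764 in p21Het. The same p21mTertCD group had the lowest mean share of Lyve1, Folr2 or Timd4 cells, and the part of that share in these levels was not tested. Genes of the Lyve1 and Folr2 subset had a median of 0.08 in p21mTert minus p21Het, 0.33 in p21mTert minus p21mTertCD and -0.09 in p21mTertCD minus p21Het. In that list Lyve1 averaged 176 ± 122 CPM in p21Het, 130.001 ± 76.1 in p21mTert and 101.5 ± 59.7 in p21mTertCD.

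The complement genes other than C1q had medians of 0.08, -0.18 and 0.13 over the 3 contrasts in that order. C4b, which acts just after C1, averaged 158 ± 12.9 CPM in p21Het, 186 ± 72.2 in p21mTert and 260.4 ± 4.15 in p21mTertCD. In scavenger and efferocytosis genes the medians were within 0.1 of 0 in all 3. Apoe, the lipid carrier, averaged 10087 ± 3041 CPM in p21Het, 8903 ± 765 in p21mTert and 11595 ± 1653 in p21mTertCD. Marco, a scavenger receptor chosen here after its values were seen, was 38.4, 0, 63.3, 34.4 and 134 CPM in p21mTert and 0, 1.93 and 3.21 CPM in p21Het, with 65.3 CPM in WT. It did not pass (log2 fold change 4.68, edgeR adjusted p = 0.626).

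Targets of p53, which lies upstream of p21, had medians of 0.14, 0.00 and 0.03, with Bax at 131 ± 25.4 CPM in p21Het, 144 ± 17.5 in p21mTert and 144 ± 8.92 in p21mTertCD. CDK inhibitors and telomerase genes had medians within 0.1 of 0, and Cdkn2a, which encodes p16 and p19Arf, averaged 21.3 ± 19.4, 20.5 ± 18.5 and 19.5 ± 1.22 CPM in those groups. Proliferation genes had medians of 0.02, -0.13 and 0.09, with Mki67 at 36.5 ± 27.0, 30.7 ± 21.6 and 40.2 ± 9.56 CPM. Lysosome genes had medians of 0.08, -0.03 and 0.12, iron and heme genes 0.22, 0.19 and 0.03, and growth factors to vessels and stroma 0.23, -0.04 and 0.26. In that last list Igf1 averaged 189 ± 51.6 CPM in p21Het and 219 ± 107 in p21mTert. Macrophage identity genes (0.05, -0.11 and 0.20) and genes of the MHC-II-high subset (0.01, -0.16 and 0.25) lay as close to 0. Immediate early and heat shock genes, which dissociation can raise, had medians of -0.02, 0.13 and -0.06. In the lists other than chemokines, cytokines and interferon response, at most 2 genes per list and direction stood at an unadjusted p under 0.05. For p21mTert minus p21Het these were, with log2 fold changes, Cd40 (0.51), Cd63 (0.27), Cfb (1.91), Mdm2 (0.42), Tgfb1 (-0.24) and Marco (4.68). For p21mTert minus p21mTertCD they were Fcgr1 (-0.57), Apoe (-0.44), Clec4n (-0.79), Cx3cr1 (-0.58), Ctss (-0.38), Plk2 (1.08), Hbegf (1.67) and Marco (3.82). For p21mTertCD minus p21Het they were Fcgr3 (0.30), C4b (0.81), Dkc1 (0.60), Tinf2 (0.66), Ctsc (0.39), Ctss (0.56), Osm (0.67), Plk2 (-0.92) and Hbegf (-1.60), and among chemokines Ccl3 (0.88). With no calls by edgeR in the settings used throughout, these lists show levels and not changes. DESeq2 and some edgeR alternatives called the list gene Cxcl1 for p21mTert minus p21Het, as given above.

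**Figure D5:**
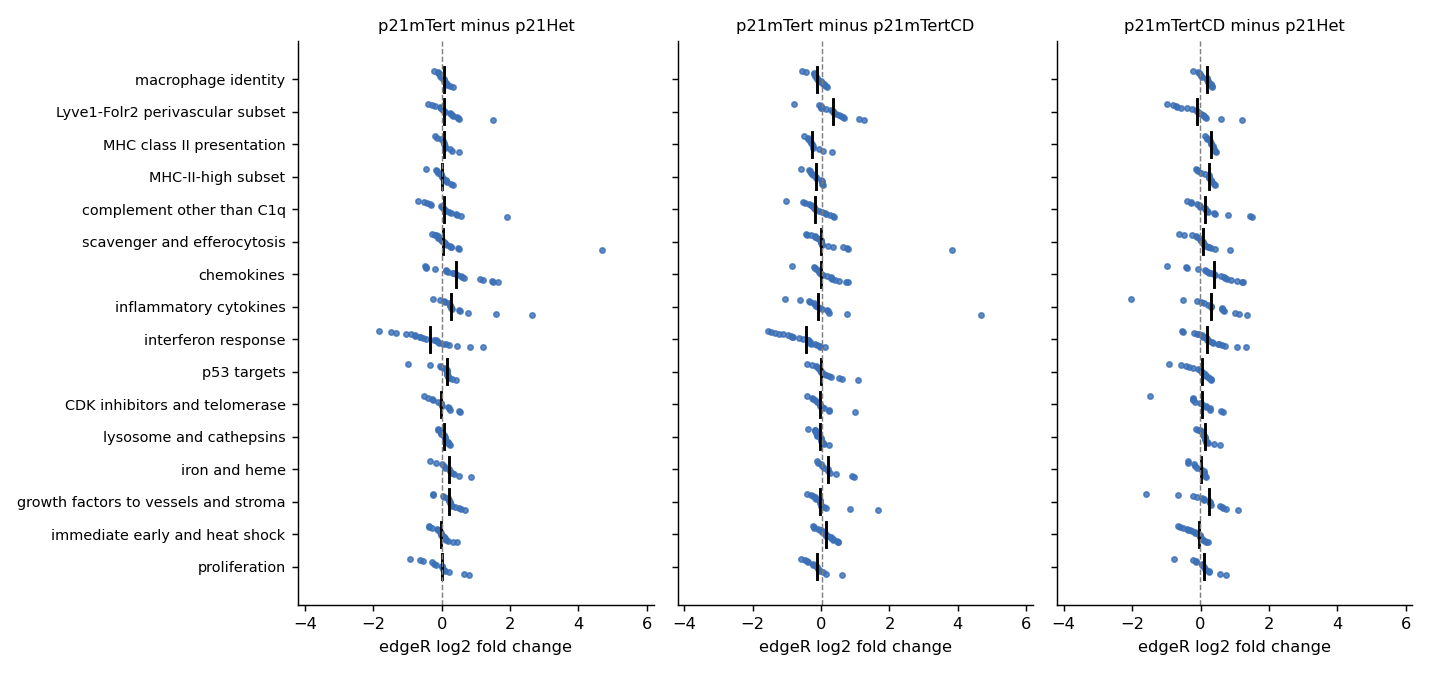
edgeR log2 fold changes of the genes of 16 pathway lists in the 3 genotype contrasts, 1 point per gene with the list median, and a dashed line at the median of all 9757 genes tested. Medians lie between -0.46 and 0.41, and edgeR with the settings used throughout called no gene in any list.

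RNA of other cell types was present in the members in unequal amounts, and its part in the differences above was not tested. By library, 39.4% to 62.8% of members held at least 5 UMIs of the conventional dendritic cell list, which summed to 489 to 1085 CPM. For the lipid-associated macrophage list these ranges were 49.4% to 84.8% and 850.2 to 1488 CPM. The highest genes of these lists were Mgl2 (314 to 712 CPM) and Lgals3 (534 to 992 CPM). Summed neutrophil markers were 2467 CPM in WT, 62.3 to 1568 in p21Het, 48.3 to 700 in p21mTert and 62.6 to 1908 in p21mTertCD. The sum of 6 B cell markers was 246 to 2577 CPM in p21Het and 198 to 8590 in p21mTert, and that of 4 haemoglobin genes 72.1 to 2992 and 84.96 to 6954 CPM. Of 13 such lists, 2 had summed levels that did not overlap between groups in each contrast. Of all tested genes, 1.06% were higher and 1.71% lower without overlap in p21mTert minus p21Het, 4.93% and 2.43% in p21mTert minus p21mTertCD, and 4.12% and 14.4% in p21mTertCD minus p21Het, so that 2 of 13 is near the background in the last contrast. The summed alveolar macrophage list was lower in p21mTert (143 to 178 CPM) than in p21Het (187 to 357 CPM), with 92.9 and 346 CPM in p21mTertCD and 87.9 CPM in WT. The classical monocyte list, given above beside Hp, did not overlap in any of the 3 contrasts. The summed endothelial list was lower in p21mTertCD (87.0 to 94.8 CPM) than in p21mTert (122 to 272 CPM) and p21Het (125 to 211 CPM). Of the alveolar macrophage genes that the rule limits, Krt79 and Siglecf had 0 UMIs in 6 of 11 libraries, Ear1 in 5 and Plet1 in 1. Of the genes of that list outside the rule, Chil3 (18.8 to 289 CPM), Ear2 (25.6 to 118 CPM) and Atp6v0d2 were present in all 11 libraries. Cidec had 0 UMIs in 4 libraries, Car4 in 3 and Fabp1 in 1. The natural killer gene Ncr1 had 0 in 8 libraries and Prf1 in 1, and Gzma reached 30.5 and 78.3 CPM in p21mTert replicates 4 and 5.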

How the data were processed

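The deposited files hold raw UMI counts per gene and barcode for 31053 genes (mm10), made with Cell Ranger per the submitters' processing notes. They carry neither the authors' cell filters nor their normalization. Lungs were digested with dispase and collagenase and libraries made with a V2 kit per the labels' protocols. Members, gene lists and tests were chosen with earlier results of these data known. Counts of members were summed per library, since cells are not replicates.

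edgeR 4.0.16 (TMM scaling, filterByExpr, quasi-likelihood F test, Benjamini-Hochberg adjustment) was fitted to the 10 libraries of 3 genotypes over 9757 genes, with 7 residual degrees of freedom and a common biological coefficient of variation of 0.213. WT entered no fit. Each SE is the absolute log2 fold change divided by the square root of the F statistic, not a separately fitted error. Genes were named by rule: all called genes, otherwise the next 5 by p in each direction that reached 10 CPM in 1 group's mean, and up to 4 abundant genes per list. On simulated counts over these 9757 genes, edgeR called 51.8%, 31.2% and 35.2% of genes changed by 1 on the log2 scale. Of those changed by 2 it called 87.5%, 88.5% and 81.0%. The order is p21mTert against p21Het, p21mTert against p21mTertCD and p21mTertCD against p21Het. Of the 141, 128 and 124 genes called, 6, 6 and 10 had not been changed. The counts were drawn at edgeR's own dispersions with the same mean in all groups but for the changes, so these rates need not hold for the libraries.

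Shares and Tert were compared with exact permutation tests over libraries (SciPy 1.17.1). Intervals and floors cover counting error only. Thinning drew 1000 UMIs per cell. Doublets were not removed. Scrublet's own thresholds marked 2 to 223 barcodes per library, so an alternative left out the highest scores at 0.8% per 1000 barcodes (4.83% to 8.86% of passing barcodes). Of the members it left out 9.62% to 14.4% in p21mTert, 7.07% to 12% in p21Het, 7.35% and 4.20% in p21mTertCD and 5.19% in WT. DESeq2 1.42.0 was a further alternative. GENCODE M21 gave positions for 30934 gene identifiers.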

Additional observations from a re-analysis of the deposited data

How the results depend on the processing

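No share crossed an unadjusted p of 0.05 under any alternative run. Tert in p21mTert minus p21Het was 1.68 when only the later deposit was used, where 4 and 2 libraries cannot give an exact permutation p below the 0.0667 found. Several differences near 0 turned sign, and the cause was not tested. These were the share of passing barcodes for p21mTert minus p21Het without p21Het_2 and p21mTertCD_1 (0.106 points, an alternative chosen after seeing the data, as was each for Tert) and the share of C1q plus alveolar macrophages in the later deposit alone (-2.19 for p21mTert minus p21Het, -1.16 for p21mTertCD minus p21Het). The Lyve1, Folr2 or Timd4 share, p21mTert minus p21Het, was -1.61 with at least 20 C1q UMIs, -0.801 with at least 5, -2.03 without Scrublet doublets, -0.484 at a minimum of 2000 UMIs and -3.29 without p21Het_2 and p21mTertCD_1, each on a new draw of UMIs but the last. Tert in p21mTert minus p21mTertCD was 0.0102 (later deposit). Cdkn1a turned to -0.0056 (no filter on low counts) and -0.0029 (at least 20 C1q UMIs) in p21mTert minus p21mTertCD, and to -0.068 in p21mTertCD minus p21Het without p21Het_2 and p21mTertCD_1.

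Counts of called genes for p21mTert against p21Het, p21mTert against p21mTertCD and p21mTertCD against p21Het moved from 0, 1 and 1 to 44, 25 and 14 with no filter on low counts. In the first 2 contrasts they were 5 and 3 with DESeq2, 1 and 2 without Scrublet doublets, and 3 and 2 with the 2 groups alone. Beside Vsig8, edgeR called Gm42031, Cxcl1 and Hp in these settings or with 1 library left out, and Mid1, Ccl21a and Timd4 with 1 library left out. With no filter it also called Gbp3, Wdfy1, Gm47283, Napsa, Slc44a2, Nxpe4, Hopx, Nxpe5, Slfn1 and Klra2 among the genes named. The third count was 0 without p21Het_2 and p21mTertCD_1, which leaves 1 p21mTertCD library that is assumed to vary like the others.

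Leaving out 1 library at a time, called genes ranged 0 to 1, 1 to 3 and 1 to 2 in that order of contrasts. The share of passing barcodes ranged -1.02 to 0.106, -2.18 to -0.158 and -0.394 to 1.63 points, the share of C1q plus alveolar macrophages -1.76 to 5.00, -1.06 to -0.0541 and -1.16 to 5.60, and the Lyve1, Folr2 or Timd4 share -3.29 to 4.73, 1.16 to 11.9 and -11.3 to -0.575. Tert ranged 1.58 to 1.89, -0.235 to 0.0343 and 1.67 to 1.97, and Cdkn1a in the last 2 contrasts -0.13 to 0.21 and -0.0081 to 0.33.

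Same-numbered p21Het and p21mTert libraries correlated at 0.31, -0.02 and -0.11, and differently numbered ones at -0.25 to 0.27. The first of these pairs, the highest of all, also shares the earlier deposit. With so few libraries the correlations cannot decide whether the numbers pair them. A block that set apart replicates 2 and 3 and pooled the other libraries gave 0 called genes. In the 3 shares, the mean differences over replicates 2 and 3 alone were -1.16, -2.69 (turned from 1.84) and 1.81 points. The other p21Het and p21mTert libraries carry no weight in those differences. Tert, with 44 UMIs, is limited by depth.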
